A study of Mus musculus with 2 samples.

Results

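The genes described here are 10 astrocyte and gliosis genes, measured in cerebellar sections that held tumors grown from breast cancer organoids. They were listed by name, without a rule on their levels, but with earlier results of these data known. They are *Gfap*, *Vim* and *Nes*, which encode intermediate filament proteins, *Serpina3n*, a secreted protease inhibitor, and *Cd44*, a hyaluronan receptor. The others are *Slc1a2* and *Slc1a3*, the main glutamate transporters of astrocytes, *Aqp4*, the water channel of astrocyte endfeet, *Aldh1l1*, a folate enzyme used as a general astrocyte marker, and *S100b*, a calcium-binding protein. All 10 of the 10 were among the 19465 genes with probes in both sections, and all 10 passed the filter on low counts that left 19034 genes for testing.

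The samples were 2 untreated biological replicates, 1 section each, called section 1 and section 2. Each tumor came from HP organoids, mammary tumor organoids of mice with a human HER2 V777L transgene under an actin promoter and with PIK3CA H1047R, marked with luciferase and injected into the cerebellum of immunocompetent mice, 5 months old per the study's methods. The titles name the organoids HP-F1 +cre for section 1 and HP-B6 +cre for section 2, while the cell line label is B6-HP for both. The study's methods describe C57BL/6J organoids and hosts, and whether the strain of section 1 differed could not be settled from the labels. Injection places the cells directly in the brain, so the tumors stand for growth in the cerebellum and not for spread to it. There was no section without a tumor, and every comparison was therefore made between regions of the same 2 sections.

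The assay was Visium CytAssist on formalin-fixed, paraffin-embedded tissue, in which pairs of probes are captured on a hexagonal array of barcoded spots and counted as unique molecular identifiers (UMIs). A spot is a small area that can hold several cells, so fewer astrocytes and less transcript per astrocyte cannot be told apart. Section 1 held 63986887 UMIs over 3406 spots under tissue, and section 2 held 71878333 UMIs over 4017 spots. Each spot was given a neural index, the share of its UMIs from 35 neuronal and myelin genes, the 10 genes themselves left out, divided by the 75th percentile of its section. The lesion was every patch of at least 20 touching spots with an index under 0.15. The edge was all spots 1 to 3 array steps from the lesion, near neural tissue the spots at 4 to 8 steps with an index of at least 0.25, and far neural tissue such spots at 9 or more steps.

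Section 1 had 788 lesion, 193 edge, 307 near neural and 2003 far neural spots, and section 2 had 866, 329, 365 and 2364. The lesion of section 1 was a single patch, and that of section 2 was made of patches of 789 and 77 spots. The median spot of the lesion held 53584.5 and 40728.5 UMIs, against 7051 and 9382 in far neural tissue. It held 17381 and 17545 at the edge and 11611 and 12814 in near neural tissue. Levels are given as UMIs per 1000000 UMIs (CPM) of the summed spots of a region, which is a share of the transcripts there and not an amount per cell. The lesions of the sections were unlike each other. Markers of fibroblasts, such as *Col1a1* and *Dcn*, summed to 56048 CPM in the lesion of section 1 and to 788 CPM in that of section 2, and epithelial markers, such as *Epcam* and *Krt8*, to 44.6 and 10786 CPM. The tissue label is cerebellum, and markers of cerebellar granule and Purkinje cells summed to 3977 and 6611 CPM in far neural tissue. Markers of projection neurons, such as *Nefm* and *Slc17a6*, summed to 4604 and 3252 CPM there. They summed to 1219 and 1112 CPM in near neural tissue and to 276 and 451 CPM at the edge. The regions were thus not matched in kind of tissue. A patch of 46 spots in section 2 met the index rule but took 22.5% of its UMIs from choroid plexus genes and was left out of all regions.

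**Figure D1:**
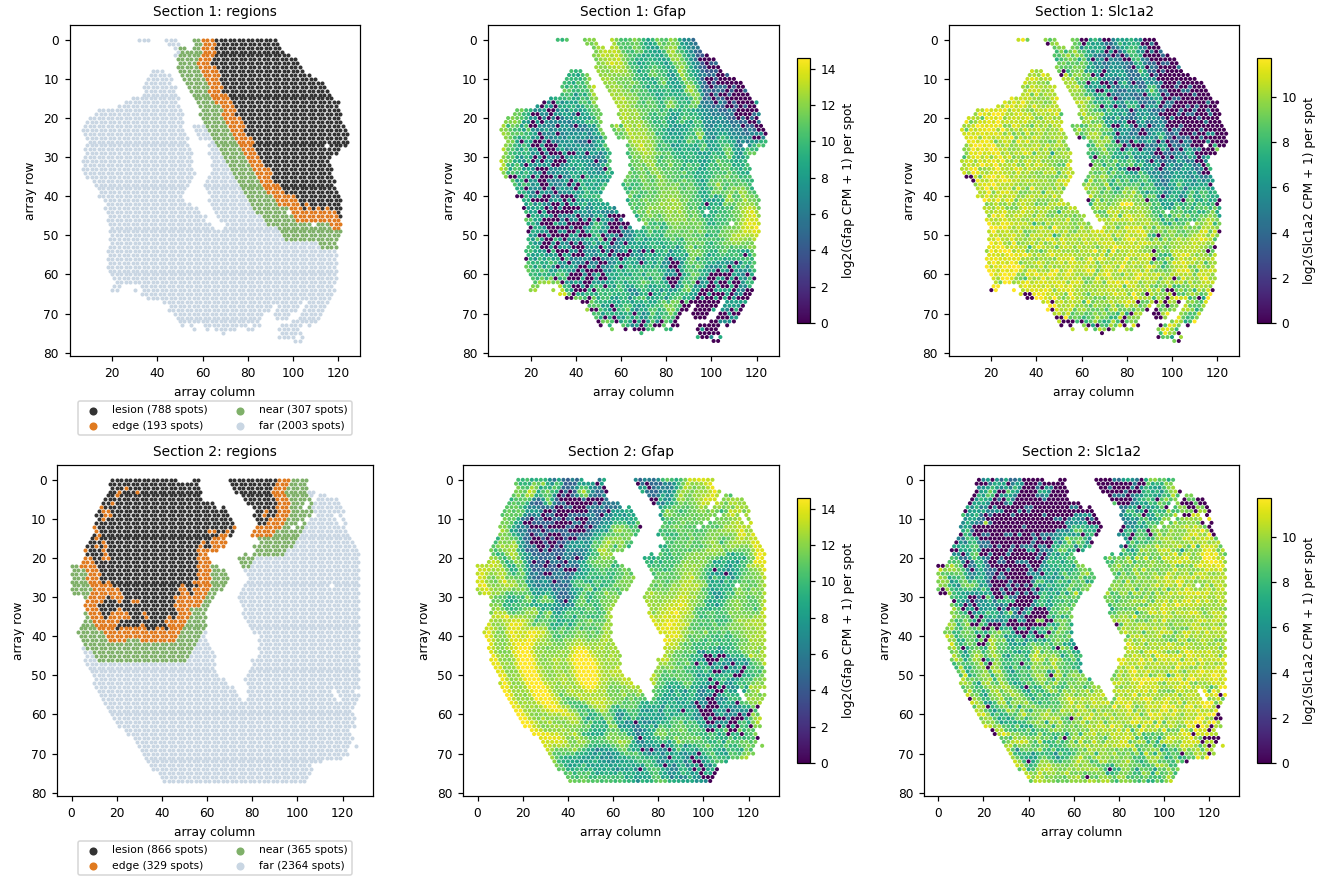
Spots of section 1 (top) and section 2 (bottom) by array column and row, colored by region (left), by log2(CPM + 1) of *Gfap* per spot (middle) and of *Slc1a2* (right). *Gfap* is high in a band outside each lesion that is wider in section 2, and *Slc1a2* is low in each lesion and rises outward from it. White gaps are places without tissue under the array.

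Astrocytes clear glutamate and potassium from the space around synapses, and they line vessels and the brain surface with endfeet. In the cerebellum they include the Bergmann glia, whose fibers cross the molecular layer beside Purkinje cells and are rich in *Slc1a3*, and the astrocytes of the granular layer and white matter. Injury, inflammation and tumors bring on reactive gliosis, in which astrocytes enlarge, make more of the filament proteins GFAP and vimentin, can take up nestin again, and secrete factors such as SERPINA3N. Several of these genes are not limited to astrocytes. *Vim* and *Cd44* are made by fibroblasts, macrophages, vessels and many tumor cells, *Nes* by vessels and progenitor cells, and *S100b* by some oligodendrocytes.

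The 3 filament genes did not all share a distance profile, though those of *Vim* and *Nes* were alike in section 1. No link between sequence and profile was tested, and the 250 bases before the start of each gene are shown here. They are from RefSeq on GRCm38.p6, which is the mm10 build that the labels name. The sequence of *Gfap* lies at chr11:102897201-102897450 on the minus strand, upstream of the gene at 102887336 to 102897200. That of *Vim* lies at chr2:13574061-13574310 on the plus strand, upstream of the gene at 13574311 to 13582826, and that of *Nes* at chr3:87970843-87971092 on the plus strand, upstream of the gene at 87971093 to 87980451. Capitals mark matches on either strand to 6 motifs, none of which overlaps another here. The STAT motif was searched as TTCNNNGAA, the AP-1 motif as TGANTCA and the CRE as TGACGTCA. The GC box was searched as GGGCGG, the TATA box as TATAAA and the CCAAT box by the letters of its name.
Gfap: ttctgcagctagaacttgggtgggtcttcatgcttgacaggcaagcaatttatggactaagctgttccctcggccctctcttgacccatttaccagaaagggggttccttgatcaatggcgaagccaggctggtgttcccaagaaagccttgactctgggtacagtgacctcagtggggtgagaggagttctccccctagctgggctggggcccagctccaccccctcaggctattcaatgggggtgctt
Vim: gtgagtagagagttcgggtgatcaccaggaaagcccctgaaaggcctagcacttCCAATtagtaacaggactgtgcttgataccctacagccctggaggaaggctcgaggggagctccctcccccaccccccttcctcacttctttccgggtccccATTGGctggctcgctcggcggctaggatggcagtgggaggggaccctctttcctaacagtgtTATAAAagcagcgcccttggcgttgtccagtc
Nes: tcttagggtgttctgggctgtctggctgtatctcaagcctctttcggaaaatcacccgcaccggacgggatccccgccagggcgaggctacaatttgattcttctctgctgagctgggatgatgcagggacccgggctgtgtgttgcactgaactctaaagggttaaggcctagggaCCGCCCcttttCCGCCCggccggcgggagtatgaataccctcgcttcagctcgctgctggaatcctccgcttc

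The window of *Gfap* held none of the 6 motifs. That of *Vim* held a TATA match 32 bases before the start and CCAAT matches 196 and 94 bases before it, and that of *Nes* held GC boxes 73 and 62 bases before it. Over 32851 RefSeq promoters of the same length, 12.4% held a TATA match, 33.8% a CCAAT match, 32.7% a GC box, 7.02% a STAT match, 6.75% an AP-1 match and 1.55% a CRE match. These are matches of letters and not sites of binding. Of the other members, 6 lie on chromosome 12 at 104406646 to 104414334 (*Serpina3n*), chromosome 10 at 76253836 to 76261319 (*S100b*), chromosome 2 at 102811141 to 102901669 (*Cd44*) and 102658239 to 102790784 (*Slc1a2*), chromosome 15 at 8634124 to 8710807 (*Slc1a3*) and chromosome 6 at 90550768 to 90599171 (*Aldh1l1*).

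*Gfap*, the filament gene by which reactive astrocytes are usually recognized, was most abundant in near neural tissue in both sections. In section 1 it was 979 CPM in the lesion, 2457 at the edge, 4513 in near neural tissue and 720 in far neural tissue. In section 2 it was 721, 3683, 5940 and 3997 CPM. From high to low the order was near, edge, lesion and far in section 1, and near, far, edge and lesion in section 2, so the far tissue of section 2 was above the edge of section 1. Counted per spot, without scaling, *Gfap* gave 50.5, 44.7, 55.7 and 5.72 UMIs in section 1 and 29.0, 69, 77.4 and 42.6 UMIs in section 2. By that count the lesion of section 1, where spots are rich in UMIs, was above its edge.

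*Vim*, the filament gene that astrocytes share with mesenchymal cells, fell outward instead. It was 4215 CPM in the lesion, 2914 at the edge, 1639 near and 169 far in section 1. In section 2 it was 1102, 2299, 1371 and 547 CPM, so that there the edge and near neural tissue exceeded the lesion. *Nes*, the filament gene of neural progenitors and new vessels, was at its lowest in far neural tissue. It was 52.1, 71.7, 44.1 and 13.6 CPM in section 1 and 160, 93.1, 35.3 and 13 CPM in section 2. Only 10.0% and 11.9% of far neural spots held a UMI of it, against 69.9% and 61.4% of edge spots.

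*Serpina3n* was also highest in near neural tissue. It was 149, 921, 1981 and 113 CPM from lesion to far neural tissue in section 1, and 149, 902, 1454 and 635 CPM in section 2. The lesion and edge levels of the 2 sections lay close together and the far level differed most, and in section 2 the edge was above far tissue, unlike for *Gfap*. *Cd44* had another order. It was 392, 489, 255 and 24.3 CPM in section 1 and 897, 634, 239 and 85.1 CPM in section 2, lowest in far neural tissue of each.

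*Slc1a2*, which encodes a glutamate transporter of astrocytes, rose with every region outward. It was 53.4, 237, 671 and 1242 CPM in section 1 and 44.9, 244, 473 and 901 CPM in section 2. *S100b* had the same order, with 59.2, 365, 912 and 1276 CPM and 61.3, 417, 616 and 846 CPM. For *Slc1a2* the levels of the 2 sections did not overlap between any neighboring regions. For *S100b* they did not overlap between lesion, edge and near neural tissue, while the far level of section 2 was below the near level of section 1. Counted per spot, without scaling, *Slc1a2* kept its order, with 2.75, 4.31, 8.28 and 9.87 UMIs and 1.81, 4.57, 6.17 and 9.61 UMIs. *S100b* gave 3.05, 6.65, 11.3 and 10.1 UMIs in section 1, so near tissue was above far tissue there. In section 2 it gave 2.47, 7.81, 8.03 and 9.02 UMIs.

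*Slc1a3*, the transporter of Bergmann glia, had no such gradient outside the lesion. It was 109, 434, 582 and 325 CPM in section 1 and 98.8, 409, 508 and 451 CPM in section 2, so that far tissue lay below the edge in section 1 and above it in section 2. *Aldh1l1* likewise was 33.6, 89.9, 148 and 91.1 CPM and 26.3, 107, 138 and 106 CPM. *Aqp4* was 73.7, 136, 432 and 214 CPM in section 1 and 46.7, 217, 326 and 309 CPM in section 2, highest near the tumor in section 1, while near and far levels of section 2 had overlapping counting intervals.

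**Figure D2:**
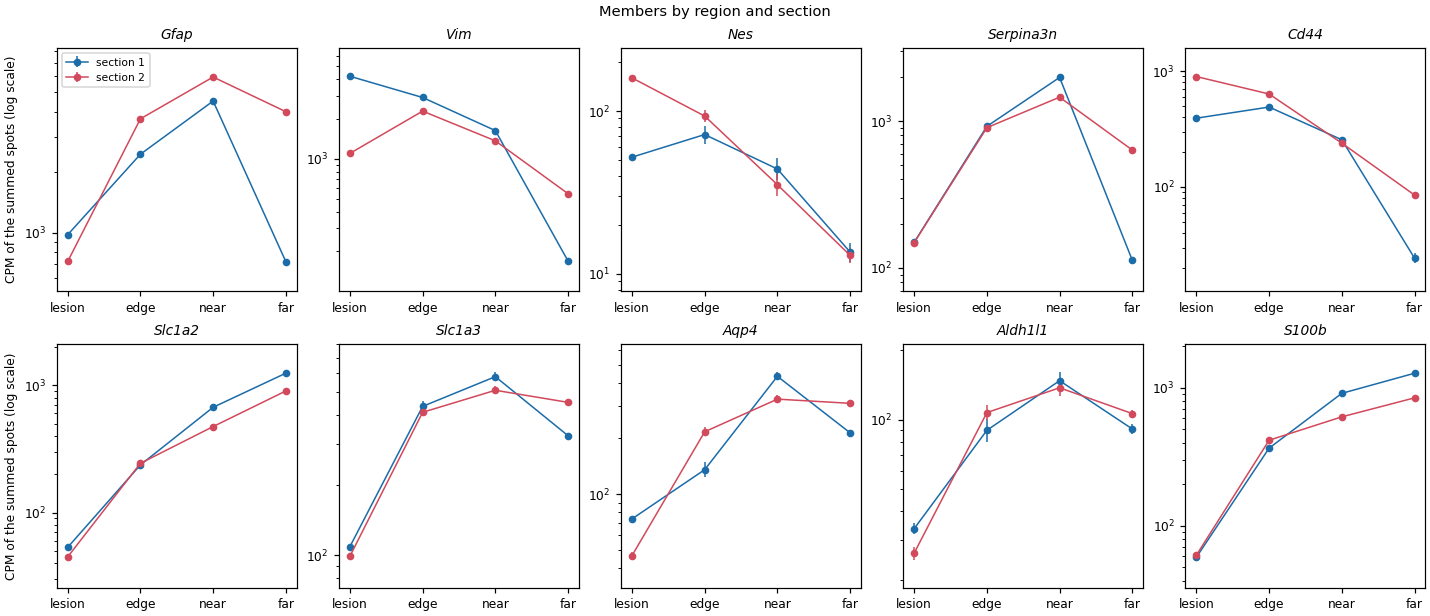
CPM of each of the 10 genes on log axes, in the summed spots of the lesion, edge, near and far neural tissue of section 1 (blue) and section 2 (red). Bars are 95% Poisson intervals of counting error and are mostly smaller than the points. *Gfap* and *Serpina3n* are highest in near neural tissue, while *Slc1a2* and *S100b* rise from region to region outward in both sections.

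Edge against far neural tissue asked which of these genes differ at the front between tumor and brain. Sums by section and region were compared by edgeR's quasi-likelihood test, blocked by section, with Benjamini-Hochberg adjustment over the 19034 genes, at an adjusted p below 0.05. Of the 10 genes, 2 were higher and 2 lower at the edge, where 7.94% of all genes tested were higher, 8.99% lower and 16.9% either. *Cd44* was higher by 3.53 on the log2 scale (SE 0.53, adjusted p = 0.0134), with 4.28 in section 1 and 2.91 in section 2. *Nes* was higher by 2.60 (SE 0.48, adjusted p = 0.0222), with 2.33 and 2.81.

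*Slc1a2* was lower at the edge, with a log2 fold change of -2.12 (SE 0.25, adjusted p = 0.00929 in edgeR), and -2.41 and -1.86 in the sections. *S100b* was lower as well, at -1.40 (SE 0.29, adjusted p = 0.0287), and -1.82 and -1.0 in the sections. The call of *S100b* was lost when the lesion threshold was 0.25, when the edge was 5 steps wide and when far tissue was limited to the granule and Purkinje class, with adjusted p of 0.0628, 0.0510 and 0.0680 in edgeR. The call of *Slc1a2* and those of *Cd44* and *Nes* held under every alternative that gives a test.

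Unlike *Nes* and *Cd44*, the gliosis genes *Vim*, *Serpina3n* and *Gfap* did not pass this test. *Vim* had a log2 fold change of 2.77 (SE 0.86, adjusted p = 0.0857 in edgeR), 4.08 in section 1 and 2.09 in section 2. It passed with DESeq2 and, in edgeR, with far tissue of the projection neuron class (adjusted p of 0.00235 and 0.0478). It also passed with far tissue from 26 steps (adjusted p = 0.0188 in edgeR), a limit chosen after the levels were seen. *Serpina3n* had 1.42 (SE 0.76, adjusted p = 0.278), 3.0 and 0.53 in the sections, and passed only with the 26-step limit (adjusted p = 0.00502 in edgeR). *Gfap* had 0.56 (SE 0.70, adjusted p = 0.668), and its sections differed in direction, with 1.75 in section 1 and -0.10 in section 2. The far tissue of section 2 held the peaks of *Gfap* and *Serpina3n* by distance, at 10 and 12 steps. *Aqp4* had -0.56 (adjusted p = 0.437), *Slc1a3* 0.11 (adjusted p = 0.821) and *Aldh1l1* 0.0022 (adjusted p = 0.997) in the same edgeR fit. *Slc1a3* was called higher at the edge, by 1.23 (adjusted p = 0.0413 in edgeR), with far tissue of the projection neuron class. With far tissue of the granule and Purkinje class *Slc1a3* had -0.82 (adjusted p = 0.0949 in edgeR). The edge spots were not split by class in either fit. Of 10 projection neuron genes, some of which set the neural index, 9 were called lower at the edge, where 8.99% of all genes were.

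Near against far neural tissue asked whether the genes differ in neural tissue beyond the edge. Near tissue was set by distance and index and was not free of lesion markers. Epithelial markers summed to 30.9 CPM near against 22.8 far in section 1, and to 574 against 162 in section 2. Fibroblast markers summed to 1405 against 460 CPM and to 236 against 128 CPM. The part of tumor cells in near tissue was not tested. In edgeR's quasi-likelihood test none of the 10 genes was called, and neither was any of the 19034 genes (0% in either direction), although 3132 genes had an unadjusted p below 0.05. Of the 14503 genes it tested, DESeq2 called 870 higher and 626 lower, among them *Serpina3n*, *Cd44* and *Nes* higher and *Slc1a2* lower. The sizes in edgeR were 2.33 for *Serpina3n* (SE 0.79, adjusted p = 0.236), 2.37 for *Cd44* (SE 0.51, adjusted p = 0.135), 1.93 for *Vim* (SE 0.84, adjusted p = 0.341), 1.30 for *Gfap* (SE 0.72, adjusted p = 0.454) and -0.96 for *Slc1a2* (SE 0.24, adjusted p = 0.15).

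The sizes of several of these genes differed between the sections. *Gfap* was higher near the tumor by 2.66 on the log2 scale in section 1 and by 0.45 in section 2, *Serpina3n* by 4.14 and 1.07, *Vim* by 3.29 and 1.2 and *Cd44* by 3.38 and 1.36. *Slc1a2* and *S100b* moved nearly alike, by -0.87 and -1.05 and by -0.47 and -0.58. The difference between the sections has no test, with 1 section of each kind.

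Lesion against far neural tissue set the tumor itself against brain. The neural index set both regions, so neuronal and myelin transcripts were lower in the lesion by rule, and all 35 index genes were called lower. Transcripts of other brain cells can fall with them, and this part of the lower calls was not tested. Of the 10 genes, 3 were higher and 5 lower, where 19.5% of all genes were higher, 19.3% lower and 38.7% either. *Cd44* was higher by 3.89 (SE 0.53, adjusted p = 0.00332 in edgeR), *Nes* by 3.15 (SE 0.50, adjusted p = 0.00534) and *Vim* by 3.04 (SE 0.91, adjusted p = 0.0456), and *Vim* lost its call under 3 of the alternatives. *Slc1a2* had -4.16 (SE 0.27, adjusted p = 2.93e-04), *S100b* -3.84 (SE 0.32, adjusted p = 5.68e-04), *Aqp4* -1.84 (SE 0.43, adjusted p = 0.0205), *Slc1a3* -1.63 (SE 0.26, adjusted p = 0.00477) and *Aldh1l1* -1.44 (SE 0.24, adjusted p = 0.00606). *Slc1a3* lost its call when far tissue was limited to the oligodendrocyte or the projection neuron class, with adjusted p of 0.0634 and 0.199. *Gfap* and *Serpina3n* were not called, and in both genes the sections differed in direction, with 0.78 and -2.26 for *Gfap* and 0.74 and -1.88 for *Serpina3n*.

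Lesion against edge compared the tumor with the tissue that touches it. Here too the index set the lesion, and 33 of its 35 genes were called lower there. In edgeR, 4 of the 10 genes were lower in the lesion and none higher, where 6.64% of all genes were lower, 1.67% higher and 8.30% either. They were *S100b* with -2.44 (SE 0.30, adjusted p = 0.00718), *Slc1a2* with -2.04 (SE 0.25, adjusted p = 0.00656), *Slc1a3* with -1.74 (SE 0.26, adjusted p = 0.0136) and *Aldh1l1* with -1.45 (SE 0.25, adjusted p = 0.0215), each lower in both sections. *Serpina3n* had -2.33 (SE 0.75, adjusted p = 0.117), nearly alike in the sections at -2.26 and -2.40, and it was called with DESeq2 (adjusted p = 0.0153). It was also called in the edgeR fit with far tissue from 26 steps (adjusted p = 0.0169), a limit chosen after the levels were seen. *Aqp4* had -1.27 (SE 0.43, adjusted p = 0.125) and was called with DESeq2 (adjusted p = 0.0450) and with a lesion index under 0.25 (adjusted p = 0.0252). In UMIs per spot, *Aqp4* and, slightly, *Aldh1l1* were higher in the lesion than at the edge in section 1, and both were lower in section 2. *Vim* had 0.27, with 0.89 in section 1 and -0.87 in section 2, and *Nes* 0.54, with -0.10 and 0.97. Near neural tissue against the edge, a comparison added after the levels were seen, gave no call among the 10 genes or among all genes (0%) in edgeR, with 2163 genes at an unadjusted p below 0.05, while DESeq2 called 387 higher and 209 lower.

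The position of each peak was read from rings of 1 array step. Array distance is a straight count of steps and passes over gaps without tissue. *Gfap* climbed from 2099 CPM at the first step to 5451 CPM at 7 steps in section 1 and then fell, to 1801 CPM at 12 steps and to 399 CPM at 16 to 20 steps. In section 2 it climbed from 3440 CPM at the first step to 7916 CPM at 10 steps, was still 6400 CPM at 16 to 20 steps, and fell to 4340 CPM at 21 to 25 steps and 1725 CPM at 26 or more. The high band was thus wider in section 2, and its farthest tissue was still above the 379 CPM of section 1. Distance in section 2 was counted from the nearest spot of either patch of its lesion. The part of this in the width of the band was not tested.

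*Serpina3n* was likewise high in a band that was wider in section 2. In section 1 it peaked at 5 steps with 2414 CPM, was 529 CPM at 9 steps and 104 CPM at 13 to 15 steps. In section 2 it peaked at 12 steps with 2066 CPM and dropped to 1052, 407 and 135 CPM at 16 to 20, 21 to 25 and 26 or more steps. The farthest levels of the sections were 76.4 and 135 CPM. Over the 34 rings of both sections, each section centered, *Serpina3n* and *Gfap* had a Pearson correlation of 0.94 on the log2 scale. With *Gfap*, *Aldh1l1* and *Slc1a3* each gave 0.93 and *Aqp4* 0.92, the last with 0.71 in section 1 and 0.99 in section 2. *S100b* gave 0.83 and *Slc1a2* 0.80, with 0.52 and 0.44 in section 1 and 0.98 and 0.97 in section 2. Both rose outward, so a high value does not mark a shared band. *Vim* gave 0.19 (0.11 in section 1 and 0.42 in section 2), *Cd44* -0.30 (0.26 and -0.71) and *Nes* -0.51 (0.07 and -0.74). Within a section, *Cd44* and *Nes* were thus negative in section 2 only. The rings include those inside the lesion. Rings of a section share 1 library and neighboring tissue, and the values are descriptions.

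*Vim* was 3359 CPM at the first step in section 1 and fell without a second rise, to 1185 CPM at 8 steps and 286 CPM at 12. In section 2 it peaked at the first step with 2514 CPM and then stayed between 1166 and 1456 CPM from 4 to 12 steps, before it fell to 424 CPM at 21 to 25 steps and 217 CPM beyond. *Cd44* fell from 521 and 718 CPM at the first step to 198 and 200 CPM at 8 steps, and to 16.7 and 48.1 CPM at 26 or more. *Nes* was highest 1 to 2 steps inside the lesion in both sections, with 96.6 and 174 CPM.

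Inside the lesion the astrocyte genes depended on the section. In section 2 *Gfap* dropped from 2262 CPM in the outermost lesion spots to 789 CPM at 1 to 2 steps inside and 114 CPM at 6 or more steps. In section 1 it was 1621, 1185 and 787 CPM at the same depths. *Slc1a2* was 36.1 CPM deep in the lesion of section 1 and 7.06 CPM in that of section 2, and *Aldh1l1* 29.4 and 9.99 CPM. The core of section 1 thus held more of these transcripts, and it was the fibroblast-rich lesion.

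In CPM, *Slc1a2* and *S100b* were highest at 13 or more steps in both sections. In UMIs per spot, *S100b* of section 1 peaked at 6 steps and *Slc1a2* of section 1 at 12 steps. Those of section 2 still peaked at 13 or more. *Slc1a2* rose from 192 and 210 CPM at the first step to 461 and 371 CPM at 4 steps and to 1426 and 994 CPM at 26 or more. *S100b* rose from 287 and 365 CPM to 617 and 536 CPM and was 1265 and 856 CPM beyond 25 steps. *Slc1a3* reached 530 and 517 CPM at 3 steps, kept between 426 and 633 CPM from there to 12 steps, and was 242 and 425 CPM at 26 or more. *Aqp4* peaked at 8 steps with 608 CPM in section 1 and at 12 steps with 410 CPM in section 2. In the ring where *Gfap* peaked, *Slc1a2* was thus still below its level at 26 or more steps in both sections. *Aqp4* was above its own, and *Slc1a3* was above it in section 1 and level with it in section 2.

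**Figure D3:**
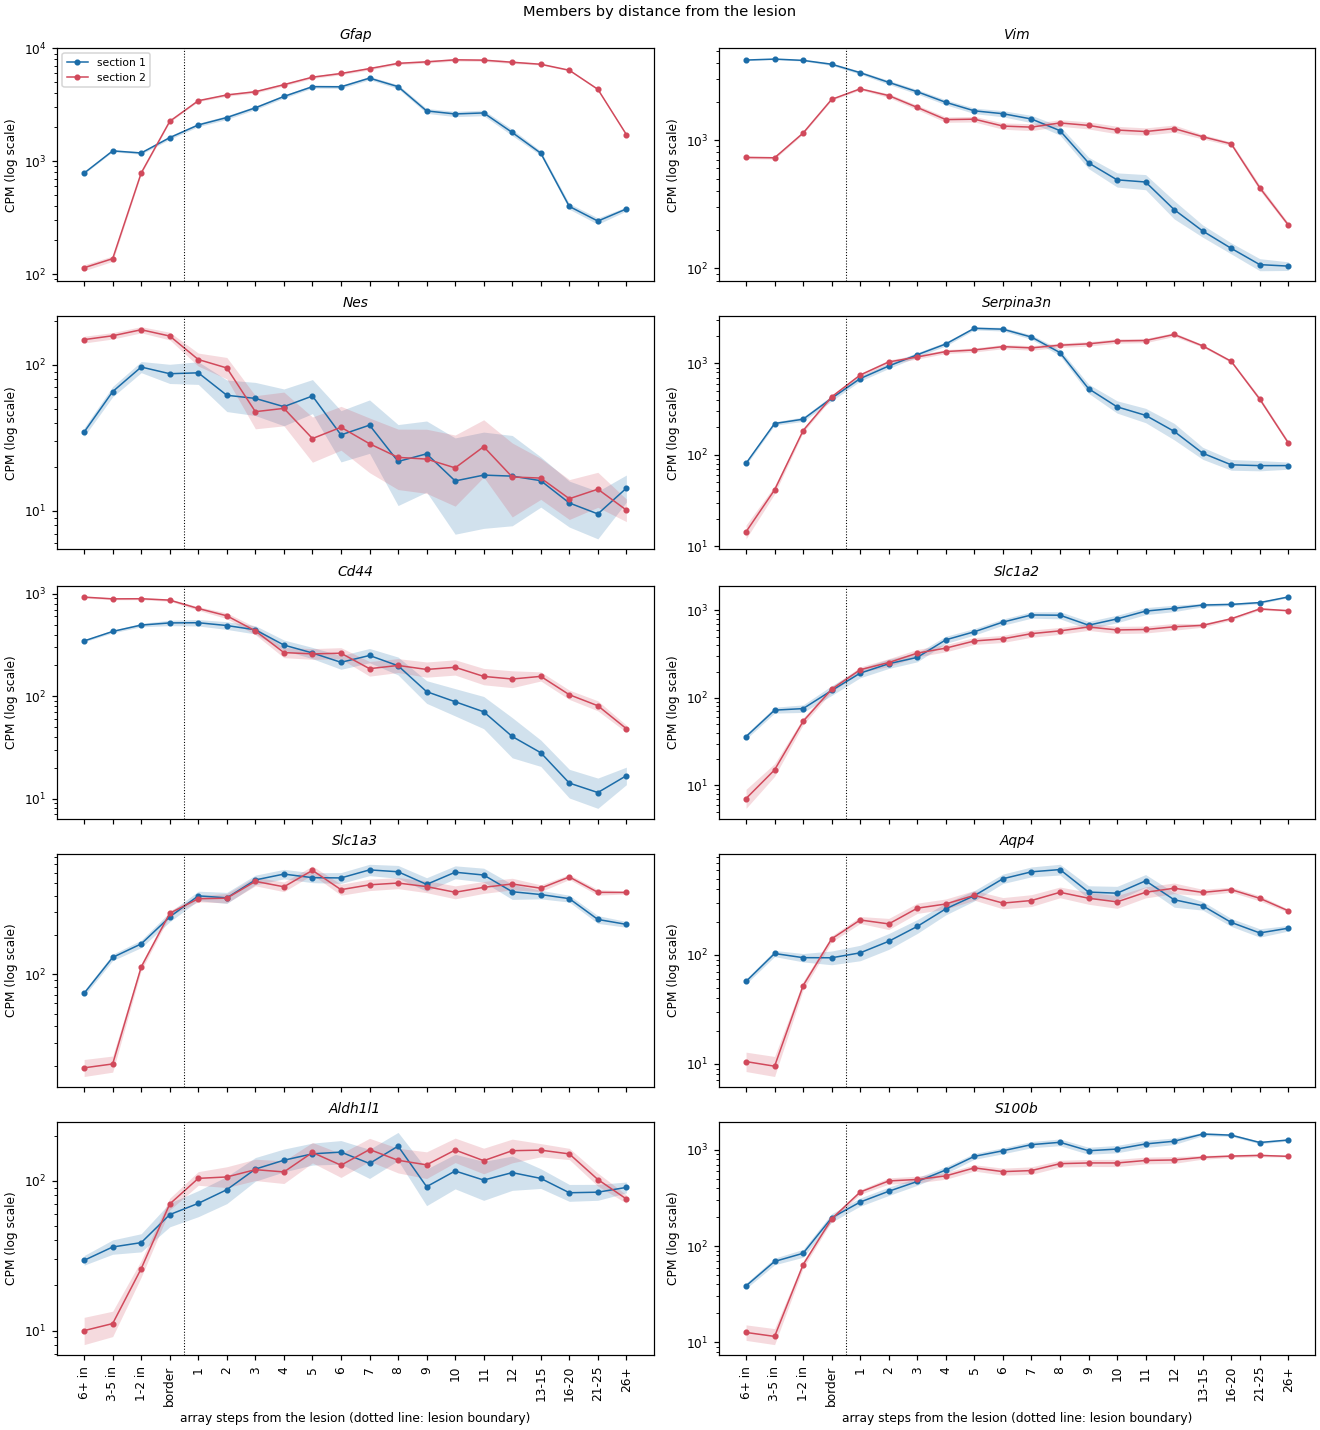
CPM of each gene on log axes by array steps from the lesion, from 6 or more steps inside to 26 or more outside, in section 1 (blue) and section 2 (red). Shading is the 95% Poisson interval of counting error and the dotted line the lesion boundary. *Gfap* and *Serpina3n* rise to a peak outside the lesion that lies farther out in section 2, and *Slc1a2* and *S100b* are lowest in the lesion and highest at 13 or more steps.

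Because far neural tissue of section 2 began inside the band of high *Gfap*, the fit was repeated with far tissue from 26 steps, 978 and 1242 spots, a limit chosen after the levels were seen. The levels of these genes thus bore on the limit, and its calls are not independent of them. *Serpina3n* was then called higher at the edge by 3.22 (SE 0.38, adjusted p = 0.00502 in edgeR) and in near neural tissue by 4.09 (SE 0.40, adjusted p = 0.0145). *Vim* was called at the edge and *Cd44* in both, and 2 of the 10 genes were called higher in near neural tissue against none before. Over all genes, 3.38% were then called higher and 0.864% lower in near neural tissue, also against none before, and 11.3% higher and 8.45% lower at the edge. *Gfap* had 1.80 at the edge (SE 0.65, adjusted p = 0.117) and 2.53 in near neural tissue (SE 0.67, adjusted p = 0.107). With that limit, *Gfap* and *Serpina3n* in the lesion turned from below to above far tissue, at 0.37 and 0.91, neither called.

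Kind of tissue can change with distance, so neural spots were also split by their neuronal and myelin transcripts into a granule and Purkinje, an oligodendrocyte and a projection neuron class, from genes other than the 10. The near tissue of section 1 was 97, 191 and 19 spots of these classes, and that of section 2 was 178, 132 and 55. Far tissue was 463, 808 and 732 spots of them in section 1 and 704, 909 and 751 in section 2. *Serpina3n* was higher near than far in all 3 classes of both sections, with a ratio of 8.93, 17.8 and 24.3 in section 1 and 2.08, 2.46 and 3.42 in section 2. *Vim* and *Cd44* also were, with ratios of 3.62 to 16.7 and 4.39 to 14.8 in section 1 and of 1.88 to 4.34 and 1.91 to 4.79 in section 2. The ratios within a section have no test, and edgeR fits over both sections within each class called none of the 10 genes and none of 17687 to 18397 genes near against far, the lowest adjusted p among the 10 being 0.0704 for *Slc1a2* in the oligodendrocyte class. Genes with an unadjusted p below 0.05 numbered 1051 to 3767.

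*Gfap* was higher near than far in the 3 classes of section 1, with ratios of 4.31, 4.67 and 12.5, and in the granule and Purkinje class of section 2, with 1.56. In the oligodendrocyte and projection neuron classes of section 2 the ratios were 0.810 and 0.872. There *Gfap* was 3379 and 2014 CPM in near tissue, rose to 7289 and 4177 CPM at 16 to 20 steps and was 2430 and 1414 CPM at 26 or more. The granule and Purkinje class of section 2 reached 11805 CPM at 9 to 12 steps, the highest level of this gene in any class and distance, and was 1514 CPM at 26 or more.

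*Slc1a2* was lower near than far in every class, and most in the oligodendrocyte class, with ratios of 0.390 and 0.376. In the granule and Purkinje class the ratios were 0.948 and 0.871, so there the near and far levels of this gene were almost level, with 762 against 804 CPM in section 1 and 502 against 576 CPM in section 2. *S100b* was lower near than far in 5 of 6 classes and sections, with ratios of 0.537 to 0.782, and 1.08 in the projection neuron class of section 1. *Slc1a3* was 912 and 858 CPM in far granule and Purkinje tissue, against 195 and 258 CPM in the oligodendrocyte and 156 and 136 CPM in the projection neuron class. The cell bodies of Bergmann glia lie among Purkinje cells. It was higher near than far in the 3 classes of section 1 (1.28, 1.64 and 1.40) and lower in the 3 of section 2 (0.911, 0.750 and 0.633).

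**Figure D4:**
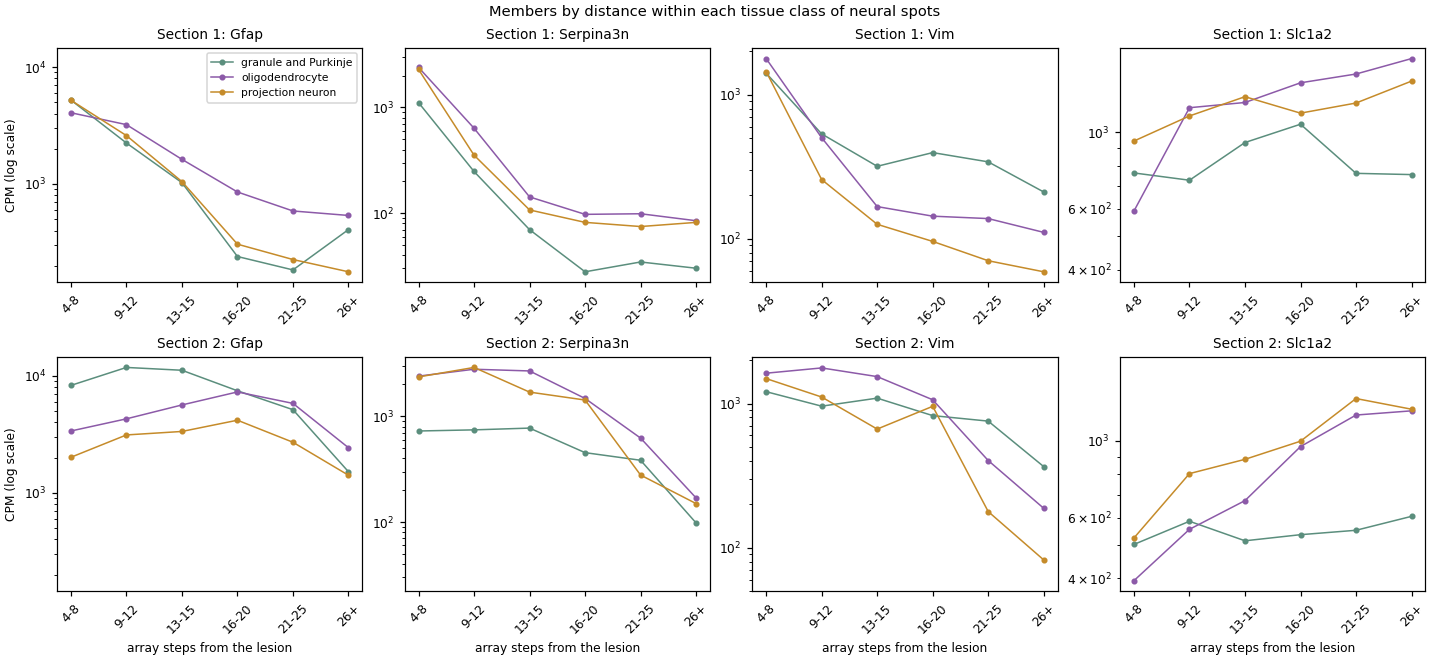
CPM on log axes of *Gfap*, *Serpina3n*, *Vim* and *Slc1a2* by array steps from the lesion, in neural spots of the granule and Purkinje (green), oligodendrocyte (purple) and projection neuron (ochre) classes of section 1 (top) and section 2 (bottom). *Serpina3n* is lower at 26 or more steps than at 4 to 8 in every class and falls farther out in section 2, and *Slc1a2* is lower near the lesion than at 26 or more steps in the oligodendrocyte and projection neuron classes.

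Other cell types changed along the same axis. A list of 10 macrophage markers summed to 7541, 12455, 4053 and 480 CPM from lesion to far tissue in section 1 and to 3697, 14012, 4079 and 1074 CPM in section 2, so it was highest at the edge, inside the peak of *Gfap*. Of the 10, 8 were called higher at the edge. Fibroblast markers summed to 10094 and 558 CPM at the edge, and 4 of 8 were called higher there. Endothelial markers summed to 514 and 637 CPM against 284 and 292 CPM in far tissue, with 6 of 8 called higher. The epithelial list summed to 35.3 CPM at the edge of section 1 and to 3396 CPM at that of section 2. At most 1 gene of any of these lists was at 0 UMIs in a region, an epithelial one in section 1. Of the remaining lists, 1 of 8 microglia, 2 of 7 pericyte and muscle, 1 of 7 ependymal, 1 of 9 epithelial, 6 of 6 proliferation and none of 6 oligodendrocyte precursor genes were called higher at the edge, where 7.94% of all genes were, so that single calls in lists of this size are near the share of all genes. The part of other cell types in the levels of *Vim*, *Cd44*, *Nes* and the other members was not tested.

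Over single spots, *Gfap* and the macrophage list had Pearson correlations of -0.80 and -0.51 in the edge spots of sections 1 and 2 and of -0.48 and -0.46 in near neural spots, over 193, 329, 307 and 365 spots. In far neural spots, 2003 and 2364 in number, the values were 0.23 and 0.39. *Gfap* and *Serpina3n* correlated by 0.04 and -0.32 at the edge, by 0.14 and -0.64 in near and by 0.27 and 0.60 in far neural spots, so within the near tissue of section 2 spots high in the one were low in the other. With the gene list of the oligodendrocyte class, *Serpina3n* correlated by 0.52 and 0.59, by 0.78 and 0.75 and by 0.18 and -0.0075 in these regions. *Gfap* and that list gave -0.45 and -0.38, -0.20 and -0.56, and 0.20 and -0.16. Which cells made *Serpina3n* was not tested. *Gfap* and *Vim* correlated by -0.19 and -0.34, by 0.21 and -0.16 and by 0.32 and 0.57 in the same regions. *Gfap* and *Slc1a3* correlated by 0.71 and 0.58, by 0.13 and 0.63 and by 0.03 and 0.25, and *Gfap* and *Aqp4* by 0.58 and 0.24, by 0.42 and 0.08 and by 0.29 and 0.34. Spots of a section share a library, differ in depth and are shares of the same total, so these values are descriptions. Levels also varied widely within a region. The spots of near neural tissue ranged in *Gfap* from 1516 CPM at the 10th percentile to 7674 CPM at the 90th in section 1, and from 1546 to 15220 CPM in section 2.

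Other genes of the astrocyte program were taken from lists and tested one by one. Of 24 homeostatic astrocyte genes, 13 were lower at the edge than in far tissue, 2 were higher and 9 were not called, with a median log2 fold change of -1.17 against -0.01 over all genes, of which 8.99% were lower and 7.94% higher. Neuronal and myelin transcripts were lower at the edge as well, with a median neural index of 0.28 and 0.30 against 0.951 and 0.936 in far tissue, and their part in the levels of the astrocyte genes, *Slc1a2* and *S100b* included, was not tested. Among those called, the 4 lowest were *Slc6a11*, a GABA transporter (-4.30), *Slc7a10*, an amino acid transporter (-2.96), *Ntsr2*, a neurotensin receptor (-2.62), and *Fgfr3*, a growth factor receptor (-2.55). *Slc6a11* was 598 and 392 scaled CPM in far tissue and 16.9 and 30.8 at the edge. The 2 that were higher were *Apoe* (2.30), the lipid carrier that macrophages also make, and *Mfge8* (1.93), a bridge for the uptake of dying cells. None of 8 Bergmann glia genes was called, with a median of 0.06.

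Of 34 genes of a panel of reactive astrocyte genes, 16 were higher at the edge, none was lower and 18 were not called, with a median log2 fold change of 2.50, where 7.94% of all genes were higher and 8.99% lower. Among those called, the 4 highest were *Timp1*, an inhibitor of metalloproteases (4.53), *Emp1*, a membrane protein (4.33), *Srgn*, a granule proteoglycan (4.21), and *Tm4sf1*, a membrane protein (3.30). The panel was not particular to the edge. In the lesion against far tissue 20 of the 34 were higher, with a median of 2.755, where 19.5% of all genes were higher. The median of lesion against edge was 0.20. The panel holds genes that other cells express, and *Cd14* is also in the macrophage list. *Emp1* was 769 and 1109 scaled CPM in the lesion against 373 and 418 at the edge, and *Srgn*, which is known from blood cells, was 511 and 436 at the edge. *Lcn2*, a panel member outside the naming rule that was chosen after its values were seen, had no call and was 1068, 1640 and 15 scaled CPM at the edge, near and far in section 1 and 2045, 2757 and 409 in section 2, the order of *Serpina3n* over these 3 regions.

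Of 9 genes of the STAT3 arm, which drives much of the reactive program, 3 were higher at the edge and none lower, against 7.94% and 8.99% of all genes. They were *Osm* (2.43) and *Il6* (2.22), cytokines, and *Osmr* (1.34), a receptor for the former that is also in the reactive panel. *Il6* was near the floor, at 9.60 and 6.77 scaled CPM at the edge against 2.04 and 1.47 in far tissue. Of 9 intermediate filament genes and partners, the neuronal filament genes *Nefm*, *Nefh*, *Nefl* and *Ina* were lower, at -3.66, -3.48, -3.36 and -2.47. *Nefm* and *Nefl* belong to the list that set the neural index, so their fall is not independent of the regions. *Lmna* (1.87) and *Des* (1.38) were higher.

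Among 9 genes of hyaluronan synthesis and other ligands or matrix partners of CD44, 4 were higher at the edge and 1 lower, against the same shares of all genes. *Tnc*, a matrix glycoprotein of tumors and injured brain, had the largest difference of all 6 lists at 5.40, and was 3431 scaled CPM in the lesion of section 2 and 606 in that of section 1. *Spp1*, the CD44 ligand osteopontin, had 4.10 and is also one of the macrophage markers used here. *Has2*, a hyaluronan synthase (2.70), and *Hmmr*, a hyaluronan-binding protein of dividing cells (2.56), were higher, and *Bcan*, a brain proteoglycan, was lower (-1.75). All calls in these lists are from the edgeR fit over all genes, and the lists were chosen with earlier results of these data known.

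**Figure D5:**
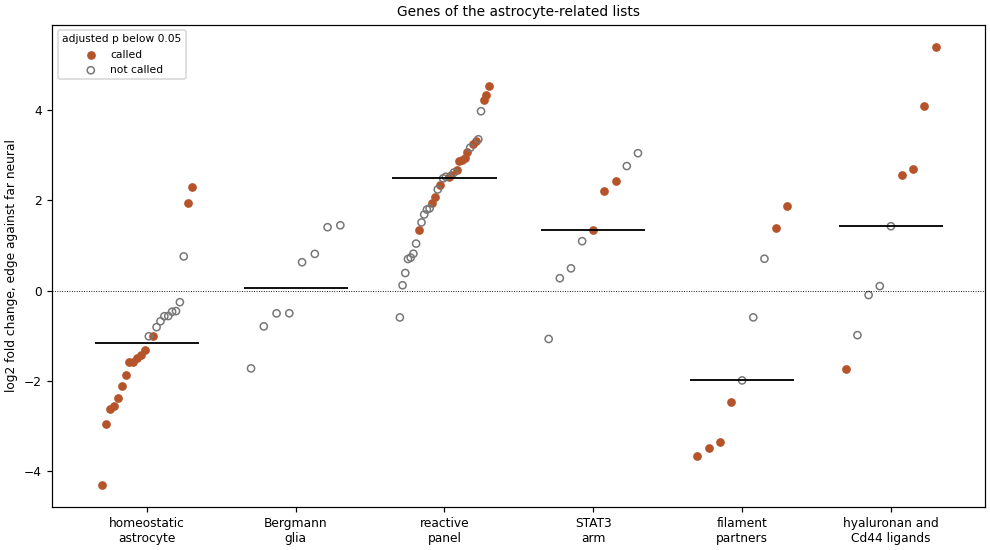
Log2 fold change of edge against far neural tissue for each gene of 6 lists, filled where the adjusted p was below 0.05 and open where not, with the median of each list as a bar. Homeostatic genes lie mostly below 0 with a median of -1.17, and genes of the reactive panel mostly above 0 with a median of 2.50.

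The genes whose ring profiles were most like those of 3 members were sought among 9638 genes with a mean of at least 20 CPM, by the Pearson correlation of log2(CPM + 1) over 34 rings. For *Gfap* they were *C4b* (0.98), a complement component, *Fxyd1* (0.98), a regulator of the sodium pump, *Slc14a1* (0.96), a urea transporter, *Stk32a* (0.95) and *Lgi4* (0.95). For *Slc1a3* they were *Nrcam* (0.98) and *Nfasc* (0.98), adhesion proteins of neurons and glia, and *Gpr37l1* (0.97), a receptor of astrocytes. For *Vim* they included *Gm8909* (0.98) and *B2m* (0.98), the light chain of MHC class I.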

How the data were processed

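The deposited files were filtered matrices of raw UMI counts per gene and spot, made by the authors with Space Ranger 2.1.1 on mm10 per the submitters' processing notes, with spot positions. Tissue pictures and clusters drawn from them were not used here. The 2 sections, 1 per label, are called biological replicates in the series' design text, and intervals on CPM cover counting error only. Spots under 500 UMIs or 10 genes were dropped. Barcodes shared by the sections (3096) are array positions. The spots of each region of a section were added up, giving 8 libraries with 3513649 to 40632959 UMIs, and fitted with edgeR 4.0.16 (TMM scaling, filterByExpr, robust quasi-likelihood F test) with a section block, which left 3 residual degrees of freedom, in R 4.3.3. Scaled CPM means CPM after TMM. The fit was also run on simulated counts, with less spread and fewer changed genes than these data, so that run does not measure error rates here. Regions, rings, correlations and promoter matches were computed in Python 3.11.15.

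The 10 genes, all gene lists and the tests were chosen with earlier results of these data known. Of the lists beside the 10, named genes were at most the 4 highest and 4 lowest called log2 fold changes at the edge, and for likeness the 5 genes closest to *Gfap* and 3 each to *Slc1a3* and *Vim*, of which 1 is not reported here. Alternatives were DESeq2 1.42.0, other scalings, no filter, no section block, other region limits, thinned spots and single tissue classes. The near against edge comparison, the far limit of 26 steps, the rings beyond 12 steps, the classes by distance and the removal of the choroid plexus patch were chosen after the data were seen.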

Additional observations from a re-analysis of the deposited data

How the results depend on the processing

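Of the 10 genes, the number higher at the edge than in far neural tissue was 4 instead of 2 with far tissue of the projection neuron class and also 4 with far tissue from 26 steps. Over all genes these settings called 1593 of 17863 and 2081 of 18398 higher, against 1512 of 19034. The number lower there was 1 instead of 2 with a lesion index under 0.25 and with an edge of 1 to 5 steps. It was also 1 with far tissue of the granule and Purkinje class, *S100b* being the gene lost in each. Over all genes these settings called 1318 of 18970, 1135 of 19105 and 981 of 18397 lower, against 1712 of 19034. In near against far neural tissue DESeq2 called 3 of the 10 genes higher and 1 lower, against 0. Over all 14503 genes it tested, 870 were called higher and 626 lower. The limit of 26 steps gave 2 of the 10 genes higher, against 0, and 621 of 18398 over all genes. In near neural tissue against the edge DESeq2 called 1 of the 10 genes higher, against 0, and 387 of 13376 over all genes. Smaller changes in number are not in this list. With DESeq2, *Vim* gained a call at the edge, and *Serpina3n* and *Aqp4* gained one in the lesion against the edge. *Vim* lost its call in the lesion against far tissue under 3 alternatives. The causes were not tested. Some differences changed sign, not all of them small, and none of these was called on either side. At the edge against far tissue, *Slc1a3* had -0.0043 with a lesion index under 0.10 and -0.82 with far tissue of the granule and Purkinje class, against 0.11 in the fit. *Aldh1l1* had -0.000109 with library size only, -0.0757 with a lesion index under 0.10 and -0.0762 with an edge of 1 to 2 steps. It had -0.12 with thinned spots and -0.19 with far tissue of the projection neuron class. Near against far, *Slc1a3* had -0.12 in the projection neuron class. Lesion against far tissue from 26 steps gave 0.37 for *Gfap* and 0.91 for *Serpina3n*, against -0.88 and -0.90 in the fit. Lesion against edge with library size only gave -0.0262 for *Vim*. Of the other values of single genes, 16 gained a call, 8 lost it and 805 counted as unchanged. Those 805 include the values of 1 section alone, which for genes without a call were judged by size of change and not by direction. The limit on size was the SD of the 2 section values themselves. A fit near the middle of these values meets that limit almost by rule, so their count as unchanged shows no stability. Some of the values of 1 section had the other sign, such as *Gfap* at the edge against far tissue, with -0.10 in section 2 against 0.56 in the fit.

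The replicate numbers mark the sections, so pairing follows from regions of 1 section. Without the section block the calls were the same in number, 2 higher and 2 lower at the edge, 3 and 5 in the lesion against far tissue, 4 lower in the lesion against the edge, and 0 in the comparisons of near neural tissue. Leaving out a section left no residual degrees of freedom, so those values carry no test. Scaling by library size alone shifted the median of all genes in the lesion against far tissue to -0.40, from -0.12.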
